A study of Mus musculus with 6 samples.

Results

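To ask whether sterol and fatty acid synthesis transcripts differ when LACTB is catalytically inactive, the 31 genes of the cholesterol synthesis and SREBP programme were followed in RNA sequencing of isolated mouse microglia. The genes were chosen by name with earlier results of these data known, so the list as a set is described and not tested. All 31 were among the 15954 genes of the deposited table. They comprise 8 genes of the mevalonate and prenyl arm, 11 of the squalene and sterol arm, 5 encoding SREBP factors and their regulators, the sterol carrier gene Stard4, and 6 genes of fatty acid synthesis, elongation and desaturation.

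Microglia came from the brains of 3 LACTB ED mice and 3 LACTB WT mice, with 1 library of polyadenylated RNA per mouse. ED mice were homozygous for S162I, a replacement of the catalytic serine of this mitochondrial enzyme made as a conditional knock-in in C57BL/6J embryonic stem cells. WT mice carried normal Lactb, and both genotypes were 3 months old. Cells were released by enzymatic dissociation, cleared of debris and collected on beads against CD11b, which other myeloid cells also carry. The sources used here do not say whether the WT mice were littermates or how the conditional allele was activated.

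SREBP proteins are transcription factors that are made as precursors in the membrane of the endoplasmic reticulum. The escort protein SCAP carries them to the Golgi for cleavage when sterols are scarce, and INSIG proteins hold SCAP back when sterols are plentiful. SREBP2 acts mainly on cholesterol synthesis genes and SREBP1 mainly on fatty acid synthesis genes. In the brain cholesterol is made locally, largely by astrocytes and oligodendrocytes, and microglia both make sterols and take up lipid-rich debris.

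Values are normalized read counts, that is, reads divided by 1 scaling factor per library by the authors, and they sum to 25635077 to 26071573 per ED library and 25616871 to 26858913 per WT library. Lactb stood at 1458, 1524 and 1491 in the ED libraries, against 1471, 1563 and 1393 in the WT libraries. The mutated base is not read by these values, so Lactb does not check the genotype. Microglial markers were abundant in all 6 libraries, with the 10 listed genes summing to 944031 to 1023963 in ED and 943139 to 1127549 in WT. The 8 astrocyte markers summed to 8086 to 8796 in ED and 7713 to 9281 in WT, and the 8 oligodendrocyte markers to 11757 to 13817 in ED and 12053 to 15779 in WT. The 8 neuron markers summed to 2135 to 2733 in ED and 2980 to 3238 in WT, with no overlap, and 6 of them had an unadjusted p under 0.05. The 8 monocyte and neutrophil markers summed to 659 to 3464 in ED and 758 to 2318 in WT, and the 5 border macrophage markers to 10387 to 12712 in ED and 9416 to 11676 in WT. No marker sum was 0 in any library.

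No member passed the test between genotypes. With limma over all 15954 genes and Benjamini-Hochberg adjustment at 0.05, 0 of 31 members and 0 genes in all (0% of those tested) were called, and the smallest adjusted p was 1.00. At an unadjusted p under 0.05 there were 0 of 31 members, against 290 genes, or 1.82%, of all those tested (1.22% lower and 0.602% higher in ED). Of the members 24 had a log2 fold change below 0 and 7 above 0, where 51.4% of all genes lay below 0. The median log2 fold change was -0.04 over the members and -0.00 over all genes, and single members ranged between -0.24 and 0.24. Fold changes are on the log2(value + 1) scale, ED over WT.

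The lean to lower values was small and depended on single mice. Without WT replicate 2 it was 18 lower and 13 higher members (median log2 fold change -0.04), and without WT replicate 3 it was 25 lower and 6 higher (median -0.10). With libraries weighted by quality 20 members were lower and the median was -0.020. Some marker lists leaned the same way in ED and others did not. Log2 fold changes were below 0 for 7 of 8 neuron markers (median -0.40) and 6 of 7 endothelial markers (median -0.42). They were also below 0 for 7 of 8 dissociation response genes (median -0.31) and 9 of 10 microglial markers (median -0.06). Of the monocyte and neutrophil markers 5 of 8 were below 0, and of the astrocyte and oligodendrocyte markers 4 of 8 each. Border macrophage markers had 1 of 5 below 0 (median 0.12). The part of these transcripts in the member values was not tested. In bulk RNA, fewer cells of a type and less RNA per cell cannot be told apart.

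The members differ widely in abundance. Per kilobase of merged exon, Scd2, a stearoyl-CoA desaturase, was the most abundant at 912 normalized counts per kilobase over the 6 libraries, followed by the sterol isomerase gene Ebp at 419 and Srebf1, the gene of SREBP1, at 383. Elovl5, a fatty acid elongase gene, Scap and Insig2 came next at 349, 347 and 334 per kilobase. Elovl5 and Scap stood in opposite order in the genotypes, at 345 and 349 per kilobase in ED, against 353 and 344 per kilobase in WT, so their order is not resolved. At the low end were the isomerase gene Idi1 at 20.3 and Elovl6, another fatty acid elongase gene, at 11.4 per kilobase. The genes of the SREBP machinery thus stood above most of the enzymes in level per length, with Srebf2 at 254 and Insig1 at 193.

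The mevalonate and prenyl arm builds isoprenoid units from acetyl-CoA, and its 8 members gave 5 log2 fold changes below 0 and 3 above 0, with none at an unadjusted p under 0.05. Acat2, the cytosolic thiolase of the first step, had 266, 244 and 248 in ED, against 258, 288 and 281 in WT. The ED mouse 1 value lay between the WT values, so the genotypes overlapped (log2 fold change -0.12, SE 0.11, 95% interval -0.38 to 0.13). Mouse has a close copy of this gene, Acat3, and reads that fit both may be lost or misplaced. Hmgcs1, the HMG-CoA synthase, had 938, 1019.8 and 932 in ED, against 1007, 1148 and 821 in WT. Its WT mice spread more widely than its ED mice and enclosed all of them (log2 fold change -0.03, 95% interval -0.30 to 0.24). Mvk, the mevalonate kinase, had the highest log2 fold change of the arm at 0.09 (95% interval -0.26 to 0.44). Idi1, with means of 68.7 in ED and 73.8 in WT, had the widest interval (-0.59 to 0.35). The farnesyl and geranylgeranyl diphosphate synthase genes Fdps and Ggps1 had log2 fold changes of -0.07 and -0.03.

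The squalene and sterol arm carries farnesyl diphosphate to cholesterol, and 8 of its 11 members had log2 fold changes below 0 and 3 above 0, with a median of -0.09. This count rested on single mice, with 6 below 0 and 5 above without WT replicate 2 (median -0.036) and 9 below 0 and 2 above without WT replicate 3 (median -0.15). The median was -0.053 without ED replicate 1 or ED replicate 3, and -0.014 with libraries weighted by quality. Cyp51 (GRCm38 chromosome 5, 4081145 to 4104746, minus strand), the lanosterol demethylase, had 349, 354 and 316 in ED, against 394, 415 and 361 in WT. Every ED value was under every WT value, although ED mouse 2 and WT mouse 3 were close. Cyp51 shares 166 exonic bases with Akap9 on the opposite strand. The log2 fold change was -0.20 (SE 0.11, 95% interval -0.44 to 0.05, limma unadjusted p = 0.0995, adjusted p = 1.00). Over all genes, 3.42% had every ED value below every WT value and 2.32% had every ED value above, and 2 of 31 members, Cyp51 and Scd1, had every ED value below.

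Msmo1, the sterol methyl oxidase that acts after Cyp51, had 554, 531 and 431 in ED, against 582, 633 and 521 in WT. ED replicate 3 was the lowest library and WT replicate 2 the highest, and the genotypes overlapped (log2 fold change -0.20, SE 0.12, 95% interval -0.48 to 0.08). The value was -0.090 without ED replicate 3 and -0.13 without WT replicate 2. Fdft1, the squalene synthase, had 310.2, 301 and 281 in ED, against 321, 385 and 308 in WT. Its higher WT mean came mostly from mouse 2 (log2 fold change -0.18, SE 0.12, 95% interval -0.45 to 0.10), and without that mouse the value was -0.081. Fdft1 shares 774 exonic bases with Ctsb on the opposite strand, a cathepsin gene, and the sources used here do not say whether counting used strand.

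Ebp had 919, 923 and 936 in ED, against 961, 1188 and 883 in WT. The ED mice were nearly equal and lay between the WT mice, and without WT replicate 2 the log2 fold change was 0.01 in place of -0.11 (SE 0.11), while without WT replicate 3 it was -0.21. Sc5d, the lathosterol desaturase, had 614, 614 and 512 in ED, against 621, 664 and 570.5 in WT, an overlap with a log2 fold change of -0.09 (95% interval -0.34 to 0.15). It was -0.0075 without ED replicate 3, -0.042 without WT replicate 2 and -0.15 without WT replicate 3. Dhcr7, the reductase of the last step of the Kandutsch-Russell branch, had 698, 727 and 703 in ED, against 719.7, 821 and 683 in WT. The ED values again lay inside the WT range.

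Tm7sf2, a sterol reductase gene, stood at the other end of the list. It had 440.5, 374 and 490.4 in ED, against 325, 322 and 468 in WT. WT replicate 3 lay among the ED mice, and the log2 fold change was 0.24 (SE 0.17, 95% interval -0.13 to 0.61). Without WT replicate 3 it was 0.42 (limma unadjusted p = 0.0154, adjusted p = 0.86), and it was 0.15 without ED replicate 3, WT replicate 1 or WT replicate 2. In the fit without WT replicate 3, 2 of 31 members and 912 of 15954 genes had an unadjusted p under 0.05. Tm7sf2 shares 532 exonic bases with Vps51 on the same strand. Lbr, which encodes another sterol reductase of the same step, had 1249, 1343 and 1368 in ED, against 1317, 1381 and 1426 in WT, a log2 fold change of -0.06.

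**Figure D1:**
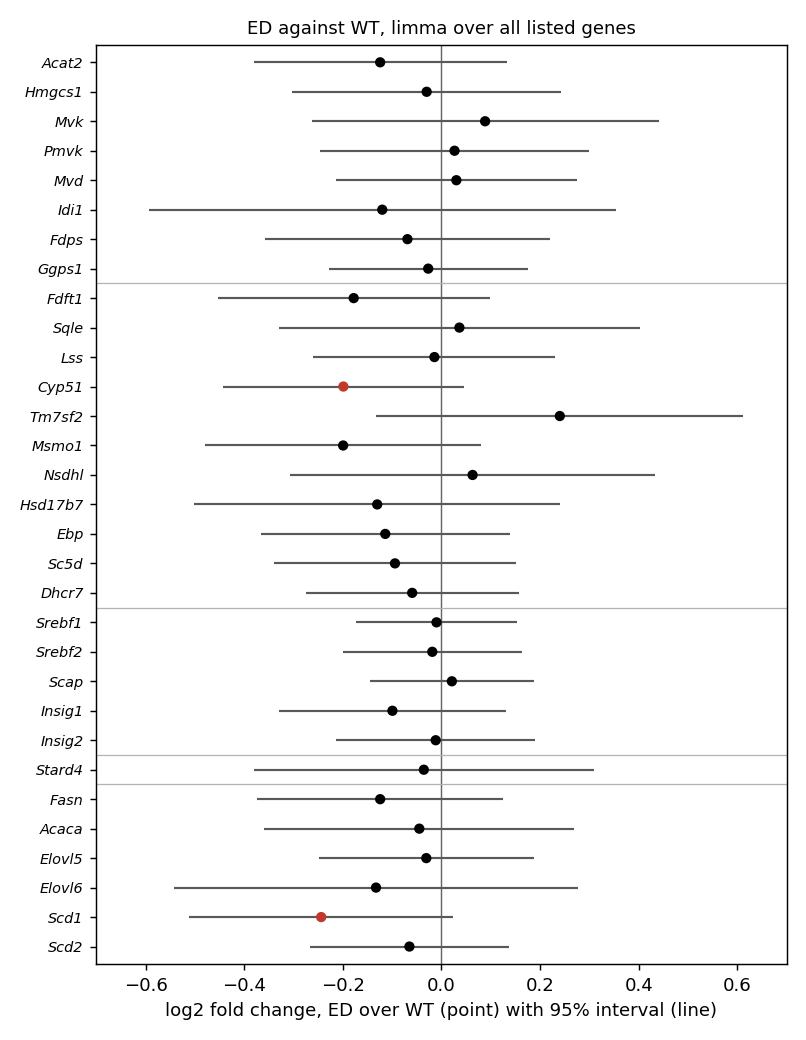
Log2 fold change of ED over WT for each gene (point) with its 95% interval (line) from limma over all listed genes, with the 2 genes whose genotypes did not overlap in red. Every interval includes 0, and the estimates run from -0.24 for Scd1 to 0.24 for Tm7sf2.

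The genes of the SREBP factors and their regulators varied least between mice, with a median residual SD of 0.08 log2 units, against 0.16 in the squalene and sterol arm. Their means over the 6 libraries ran from 596 for Insig1 to 2579 for Scap. In the squalene and sterol arm the means ran from 119 for Hsd17b7 to 968 for Ebp. The part of abundance in this spread was not tested. Srebf1 had 2174, 2057 and 2229 in ED, against 2189, 2161 and 2152 in WT, and Srebf2, the gene of SREBP2, had 1726, 1813 and 1894 in ED, against 1758, 1961 and 1788 in WT. Their log2 fold changes were -0.01 (95% interval -0.17 to 0.15) and -0.02 (95% interval -0.20 to 0.16). Scap had 2614, 2613 and 2565 in ED, against 2629, 2644 and 2412 in WT, a log2 fold change of 0.02 (95% interval -0.15 to 0.19). For these 3 genes the intervals leave room only for differences of up to 0.20 on the log2 scale.

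Insig1, which is itself an SREBP target, had 522, 617 and 587 in ED, against 651, 571 and 626 in WT. ED replicate 1 was its lowest library and the genotypes overlapped (log2 fold change -0.10, SE 0.10, 95% interval -0.33 to 0.13). The value was -0.031 without ED replicate 1 and -0.059 without WT replicate 1, against -0.15 without ED replicate 2 or WT replicate 2. Insig2, which does not depend on SREBP in the same way, had 1261, 1153 and 1056 in ED, against 1171, 1202 and 1118 in WT. The ED mice spread to both sides of the WT mice (log2 fold change -0.01, 95% interval -0.21 to 0.19). These values are transcript levels, and SREBP cleavage was not measured.

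Fatty acid genes all had log2 fold changes below 0, 6 of 6 with a median of -0.09, and without WT replicate 1 it was 4 of 6 with a median of -0.050. Without ED replicate 3 it was 5 of 6 with a median of -0.15, and without ED replicate 2 it was 5 of 6 with a median of -0.060. Scd1 (GRCm38 chromosome 19, 44394455 to 44407879, minus strand), a desaturase that makes oleate, had 363, 355 and 302 in ED, against 419.5, 422 and 365 in WT. Again every ED value was under every WT value, although the gap between ED mouse 1 and WT mouse 3 was narrow. Its log2 fold change of -0.24 (SE 0.12, 95% interval -0.51 to 0.02) had the smallest p of the 31 members (limma unadjusted p = 0.0695, adjusted p = 1.00), and without ED replicate 3 it was -0.16. The far more abundant paralog Scd2 had 5004, 4869.7 and 4718 in ED, against 5665, 5025 and 4625 in WT. WT mouse 3 was its lowest library, and the log2 fold change was -0.07 (95% interval -0.27 to 0.14). Scd1 and Scd2 lie on chromosome 19 and are similar in sequence, so reads that fit both are uncertain.

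Fasn, the fatty acid synthase, had 1022, 1057 and 1292 in ED, against 1305, 1103 and 1256 in WT. The genotypes overlapped, with ED replicate 3 among the WT values and WT replicate 2 near the lower ED values (log2 fold change -0.12, SE 0.11, 95% interval -0.37 to 0.12). It was -0.060 without ED replicate 1 and -0.075 without WT replicate 1, against -0.23 without ED replicate 3 and -0.20 without WT replicate 2. Acaca, the acetyl-CoA carboxylase that feeds Fasn, had 404, 365 and 475 in ED, against 468, 361 and 454 in WT. It was high in ED replicate 3, WT replicate 1 and WT replicate 3 as Fasn was. With libraries weighted by quality in limma, Fasn, Acaca, Scd1 and Scd2 had unadjusted p under 0.05 (log2 fold changes of -0.25, -0.24, -0.23 and -0.16) and adjusted p of 0.361 to 0.441. These were 4 of 31 members, where 1761 of 15954 genes reached that level in the same fit. That fit gave weights of 3.23 to ED replicate 2 and 2.80 to WT replicate 1, against 0.35 to 1.00 for the others, and thus leaned on 1 mouse of each genotype.

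Many members also varied together between mice of the WT genotype, most clearly in the squalene and sterol arm. WT replicate 2 was the highest of the 6 libraries for 18 of 31 members, where it was the highest for 26.2% of all genes. It was the lowest of the 6 for 4 of 31 members and for 4419 of 15954 genes. In the squalene and sterol arm it was the highest for 9 of 11 members. Averaged over that arm, the libraries deviated from the 6-library mean by -0.01, -0.00 and -0.08 log2 units in ED, against 0.01, 0.15 and -0.07 in WT. The other 2 members, Lss, the lanosterol synthase, and Tm7sf2, had their lowest value in WT replicate 2. The fatty acid genes as a group did not share the pattern, although WT replicate 2 was the highest for 3 of 6. Their mean deviation was 0.11 log2 units in WT replicate 1, against 0.03 in WT replicate 2 and 0.02 in WT replicate 3. This library was singled out after the values were seen, so the counts describe it and test nothing.

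Sqle, the squalene epoxidase that limits flux in this arm, had 186, 192 and 193 in ED, against 199, 218 and 148 in WT. Nsdhl, a sterol dehydrogenase gene, had 377, 395 and 343 in ED, against 375, 435 and 274 in WT. In both, WT mice 2 and 3 held the highest and the lowest of all 6 values. Stard4, a sterol carrier gene, had 131, 133 and 129 in ED, against 127, 157 and 123 in WT, with the same order of the WT mice. The SREBP genes themselves shared this little, with WT replicate 2 at 0.03 and WT replicate 3 at -0.02 log2 units from their mean.

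Other transcripts were also high in WT replicate 2. It was the highest library for 6 of 7 endothelial markers, which summed to 3762, 3189 and 2874 in ED, against 3526, 5942 and 3012 in WT. It was the highest for 7 of 8 dissociation response genes, which summed to 100666, 168650 and 154760 in ED, against 176886, 219208 and 135313 in WT. It was also the highest for 7 of 10 microglial markers, 1 of 8 astrocyte markers and 0 of 8 oligodendrocyte markers. The part of these transcripts in the member values was not tested.

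**Figure D2:**
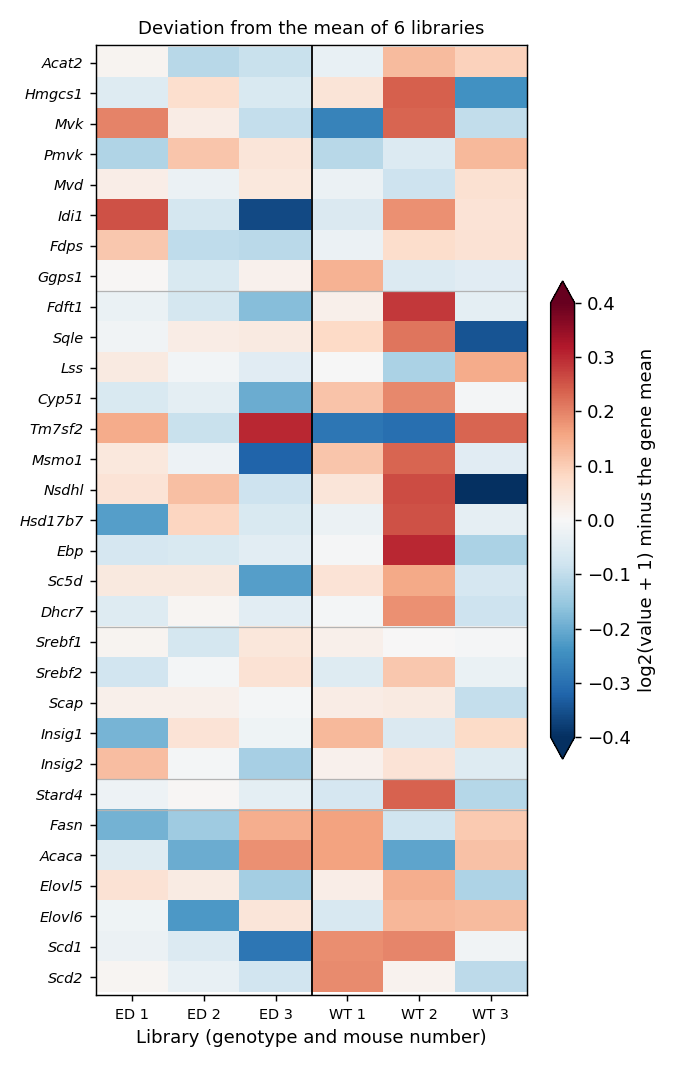
Deviation of each gene from its mean over the 6 libraries, in log2 units, with the 3 ED libraries left of the 3 WT libraries. Colours saturate at 0.4. WT 2 is the reddest column for the squalene and sterol arm, where its mean deviation was 0.15, with Lss and Tm7sf2 in the opposite colour.

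Promoter sequence is described here with no test. The genes were picked as a cholesterol synthesis and SREBP programme, so their promoter motifs are not independent of that choice. RefSeq promoters on GRCm38.p6, from 250 bases before to 50 bases after each annotated start, were matched for 25 of the 31 members. They were searched on both strands for CCAAT, the box bound by NF-Y, a partner of SREBP, for GGGCGG, the box bound by Sp1, for CACGTG, the E-box, and for TCACNCCAC, a sterol regulatory element core. CCAAT was found in 21 of 25 members (84.0%), against 42.5% of the 11379 genes of the deposited table with a promoter and 9 of 23 other pathway genes (39.1%). In 18 of 25 members (72.0%) a CCAAT began between 100 and 20 bases before the start, against 23.8% of the genes of the table, a window that was set after the positions were seen. GGGCGG was found in 19 of 25 members (76.0%), against 66.3% of the genes of the table. CACGTG was found in 6 of 25 (24.0%), against 11.4%, and TCACNCCAC in 1 of 25 (4.0%), against 1.41%. A match is a description of letters and not a bound site, and a strict 9-letter core misses variant elements.

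Promoters of 4 members are shown because they carry the contrasts above, with Cyp51 and Msmo1 among the lowest fold changes over the 6 libraries, Tm7sf2 the highest, and Hmgcs1 the gene with the sterol element. Each runs 5′ to 3′ on the strand of the gene, and capitals mark CCAAT or its reverse complement ATTGG, and in Hmgcs1 also the sterol element core.
Cyp51 (chr5:4104648-4104947, minus strand): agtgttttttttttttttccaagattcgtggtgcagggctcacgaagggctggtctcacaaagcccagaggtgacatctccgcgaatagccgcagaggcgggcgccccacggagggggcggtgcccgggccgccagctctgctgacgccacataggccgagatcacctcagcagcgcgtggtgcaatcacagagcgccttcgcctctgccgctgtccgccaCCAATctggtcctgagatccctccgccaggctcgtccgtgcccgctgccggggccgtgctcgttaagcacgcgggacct
Msmo1 (chr8:64733529-64733828, minus strand): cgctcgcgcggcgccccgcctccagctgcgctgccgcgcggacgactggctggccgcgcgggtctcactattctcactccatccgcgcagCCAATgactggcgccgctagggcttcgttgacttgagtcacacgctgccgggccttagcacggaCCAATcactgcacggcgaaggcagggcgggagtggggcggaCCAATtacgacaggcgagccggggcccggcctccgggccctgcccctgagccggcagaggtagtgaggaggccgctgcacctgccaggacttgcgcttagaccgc
Tm7sf2 (chr19:6067801-6068100, minus strand): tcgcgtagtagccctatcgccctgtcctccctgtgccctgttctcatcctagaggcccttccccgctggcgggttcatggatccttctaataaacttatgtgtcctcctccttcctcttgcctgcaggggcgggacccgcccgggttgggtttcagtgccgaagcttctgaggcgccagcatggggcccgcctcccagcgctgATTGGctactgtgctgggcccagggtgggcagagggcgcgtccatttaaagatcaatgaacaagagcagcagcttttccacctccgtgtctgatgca
Hmgcs1 (chr13:119690101-119690400, plus strand): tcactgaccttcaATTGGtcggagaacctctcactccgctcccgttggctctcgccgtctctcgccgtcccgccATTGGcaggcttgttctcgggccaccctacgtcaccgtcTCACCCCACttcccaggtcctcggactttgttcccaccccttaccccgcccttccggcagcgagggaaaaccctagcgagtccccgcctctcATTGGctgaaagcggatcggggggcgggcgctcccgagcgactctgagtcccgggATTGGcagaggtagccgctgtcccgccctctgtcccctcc
Cyp51 and Tm7sf2 each held 1 CCAAT, starting at -29 and -47 from the annotated start, Msmo1 held 3 at -160, -96 and -55, and Hmgcs1 held 4 at -237, -176, -45 and 11. Cyp51 and Tm7sf2, whose log2 fold changes of -0.20 and 0.24 had intervals that included 0, both held this box close before the start. Scd1, Scd2, Sqle, Fdft1, Fdps and Stard4 were not matched.

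**Figure D3:**
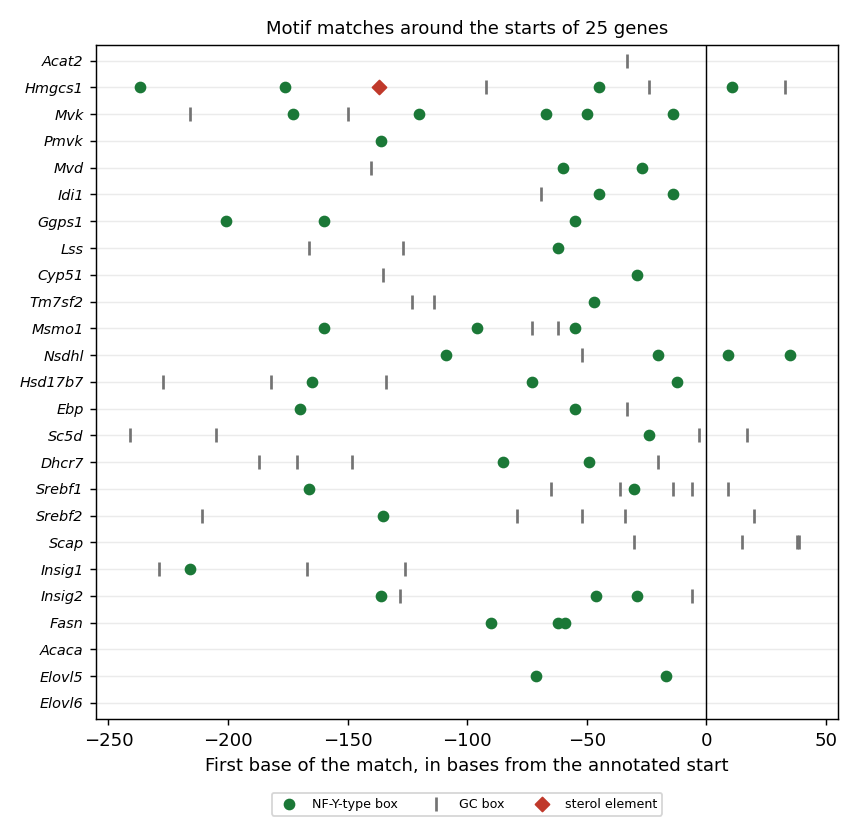
Position of each match around the annotated starts of the 25 matched genes, in bases from the start, with circles for the NF-Y-type box (CCAAT), ticks for the GC box (GGGCGG) and a diamond for the sterol element (TCACNCCAC), on either strand and over all listed starts of a gene. Circles gather within 100 bases before the start, and the single diamond belongs to Hmgcs1.

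A list of 30 other genes around this programme was followed in the same fit. Of these, 19 had log2 fold changes below 0 and 11 above 0, with a median of -0.02, and 0 had an unadjusted p under 0.05. The sign of this median turned without ED replicate 3 (0.0064) and without WT replicate 2 (0.0011). The 9 genes of SREBP cleavage and enzyme turnover had 5 below 0 and 4 above. Mbtps1 and Mbtps2, the proteases that cleave SREBP, had log2 fold changes of -0.04 and -0.06. Fntb, a farnesyltransferase subunit gene, had the smallest p, with 196, 171 and 163 in ED, against 236, 206 and 179.6 in WT (log2 fold change -0.22, SE 0.15, unadjusted p = 0.171). The lowest WT value lay between the ED values.

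Acly, the ATP citrate lyase that supplies cytosolic acetyl-CoA, was the single gene of the 30 in this list without overlap. It had 6014, 6287 and 6229 in ED, against 6542, 6792 and 6379 in WT, a log2 fold change of -0.09 (SE 0.07, 95% interval -0.25 to 0.08). Over all genes, 3.42% had every ED value below every WT value and 2.32% had every ED value above, so 1 such gene in 30 is near that share. Ufd1, which helps extract ubiquitinated proteins from the endoplasmic reticulum, had 1170.5, 1156 and 1075 in ED, against 1074, 1077 and 1021 in WT, a log2 fold change of 0.10 (SE 0.08). Here ED mouse 3 lay inside the WT range and the other ED mice above it.

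The size of difference these libraries could show follows from the intervals. The standard error of a member's log2 fold change had a median of 0.11 and ranged from 0.07 for Srebf1 to 0.21 for Idi1. For 26 of 31 members the whole 95% interval lay within 0.5 log2 units of 0. For the other 5, Idi1, Tm7sf2, Hsd17b7, Elovl6 and Scd1, a difference beyond that size was within the interval. Not passing the test therefore does not show equal levels in ED and WT microglia.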

How the data were processed

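Polyadenylated RNA of CD11b-selected microglia was sequenced from 3 ED and 3 WT mice, and groups and mouse numbers came from the sample titles. The deposited signal values are normalized counts, for which the authors scaled each library's reads by its own size factor. Values of a library are integer multiples of a library-specific step (within 0.001 of a step), and in these steps libraries summed to 23394686 to 28122336. The lowest value above 0 was 2 steps in the ED libraries and 1 step in the WT libraries. On that ground a step was not taken as 1 read and no count model was fitted. The values did not force this choice, since a lowest value of 2 steps does not exclude a step of 1 read. The submitters' processing notes name GRCm38, Trimmomatic 0.36, STAR 2.5.2b, Subread 1.5.2 (featureCounts) and DESeq2. Columns deposited by the authors that hold their own log2 fold changes and p-values stayed unused. No gene had a mean under 9.87.

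Values were analysed as log2(value + 1) with limma 3.58.1 in R 4.3.3 (genotype only, mean-variance trend) and Benjamini-Hochberg adjustment over 15954 genes, and the procedure was tested on simulated data. Genes were matched by identifier to GENCODE M21 for positions and merged exon lengths. The members and lists were chosen with earlier results of these data known. Values per library were given for members with an unadjusted p under 0.05 or without overlap, the next smallest p up to 10 members, and the 5 SREBP genes. Hmgcs1, Sqle, Nsdhl, Dhcr7, Stard4, Acaca, Scd2 and Lbr were added after their values were seen. P-values rest on 3 mice per genotype, with each gene's spread between mice moderated by limma toward the trend over all genes.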

Additional observations from a re-analysis of the deposited data

How the results depend on the processing

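With 3 mice per genotype, the calls rest on the spread between few libraries. No member passed at an adjusted p of 0.05 under any alternative run, and the smallest adjusted p of a named member was 0.361. The alternatives were pseudocounts of 0.5 and 10, a minimum mean of 50, upper-quartile and trimmed-mean scaling, no mean-variance trend, array weights, a block for mouse number, and each library left out. The 2 planned count-model fits were not run, since a step was not taken as 1 read.

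The number of genes called was 0 with limma and 4 with array weights, none of them a member. Genes at an unadjusted p under 0.05 numbered 290, against 180 with a minimum mean of 50, 498 without the trend, 1761 with array weights and 216 to 912 without single libraries, the 912 without WT replicate 3. Members at that level numbered 0, against 4 with array weights, 1 with the block (Scd1) and 0 to 2 without single libraries, the 2 being Tm7sf2 and Scd1 without WT replicate 3. The members' median log2 fold change was -0.020 with array weights and ran from -0.10 without WT replicate 3 to -0.035 without ED replicate 3 when single libraries were left out, and members lower in ED from 18 without WT replicate 2 to 25. Of 196 refits of 14 named members, 188 kept the direction. Refits without the trend, with the block or with the minimum mean cannot change a gene's log2 fold change, so their direction was fixed in advance. The 8 reversals all came with array weights or with a library left out. Srebf2 turned to 0.019 with array weights. Without single libraries Srebf2 ran from -0.052 to 0.030, Srebf1 from -0.035 to 0.023, Insig2 from -0.076 to 0.052, Ebp from -0.21 to 0.0082 and Scap from -0.022 to 0.044. The median of the other pathway genes ran from -0.047 to 0.0064. The cause was not tested.

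Same-numbered mice of the genotypes had correlations of -0.10, 0.05 and 0.27. With 3 mice per genotype these values cannot show whether the mouse numbers pair the samples. With the replicate block 403 genes had an unadjusted p under 0.05 and 0 passed. Counting only the first annotated start of each gene, which was added once the data had been seen, CCAAT was found in 20 of 25 members.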
